A study of Mus musculus with 2 samples.

Results

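Leukaemia inhibitory factor (LIF) and ciliary neurotrophic factor (CNTF) belong to the interleukin-6 family of cytokines, and 10 genes of their signalling route through the transcription factor STAT3 were followed in the mouse retina. The 10 genes were picked by name, as the rows of a deposited transcript table whose gene symbol was Lif, Cntf, Clcf1, Il6st, Lifr, Osmr, Cntfr, Stat3, Socs3 or Jak1. They held 16 of the 30608 transcripts and 10 of the 23356 gene symbols in that table. RNA was sequenced from retinas dissected at postnatal day 15, with 1 triple mutant library and 1 control library. The triple mutant carried loxP-flanked alleles of Dnmt1, Dnmt3a and Dnmt3b (written flox/flox in each case) and the Rx-Cre transgene, in which regulatory sequence of the retinal gene Rx drives Cre recombinase. The control carried the same flanked alleles of these DNA methyltransferase genes and was Rx-Cre negative, so neither library stands for a retina without flanked alleles. The strain label reads C57BL/7 for the triple mutant and C57BL/6 for the control. The number of animals behind each library is not stated in the labels.

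Cytokines of this family signal by bringing together receptor chains at the cell surface, and nearly all of them use the shared chain gp130, the product of Il6st. LIF joins gp130 with the LIF receptor, while CNTF and the cytokine encoded by Clcf1 first bind the CNTF receptor, which has no intracellular part. Janus kinases bound to the chains then phosphorylate STAT3, which enters the nucleus, and SOCS3 is induced by STAT3 and blocks the same receptors. In the retina LIF is known to be made by Mueller glia when photoreceptors are damaged, and CNTF is known for protecting photoreceptors.

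Values are FPKM, fragments per kilobase of transcript scaled for library size, as the authors estimated them and summed here over the transcripts of a gene. A level of 1 FPKM rested on about 56.0 fragments for each kb of transcript in the triple mutant library and 48.7 in the control library, as the spacing of the lowest values showed. A 95% interval beside a fold covers the counting of fragments only. With 1 library per genotype there was no replicate check and no test, so each difference is between these 2 libraries. Dnmt1 had 11.6 FPKM in the triple mutant and 21.7 in the control, Dnmt3a had 56.0 and 87.4, and Dnmt3b had 0.827 and 1.03 in the same order. All 3 targeted genes were thus lower in the library labelled as mutant, where Dnmt1 and Dnmt3a remained well above 1 FPKM. Dnmt3b was low in both libraries and adds little to this check of the labels. Rod genes marked both libraries as retina, with Sag at 3512 FPKM in the triple mutant and 3931 in the control. Lens markers summed to 2.06 FPKM in the triple mutant and 152 in the control, and pigment epithelium markers to 6.01 and 129, so RNA of these neighbouring tissues differed between the libraries. The part of that RNA in the levels of the 10 genes was not tested.

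Lif, Osmr, Stat3 and Socs3 were each at least 2-fold higher in the triple mutant library by the deposited FPKM, and the other 6 lay within 1.5-fold of the control. The 4 were the low ligand Lif, the receptor chain of oncostatin M, the transcription factor and its inhibitor. The shared receptor chain, the LIF and CNTF receptors, the kinase Jak1 and the ligands Cntf and Clcf1 made up the 6. A 2-fold higher FPKM was found in 2.96% of 13264 genes that reached 1 FPKM in either library and were above 0 in the control. That share depended on level: it was 18.6% among genes averaging 0.1 to 1 FPKM, 5.75% among those averaging 1 to 5 FPKM and 0.916% among those averaging 10 to 100 FPKM. Lif was in the lowest of these bands, Osmr and Socs3 in the middle band and Stat3 in the highest. The 10 genes were chosen with earlier results of these data known, so their counts beside such shares are no test.

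A second measure added 1 FPKM to each value before the log2 ratio, which damps the ratio where levels are low. A gene was called measured if either library reached 1 FPKM, and past the size rule if its log2 ratio was 1 or more, or -1 or less. Of the 10 genes 9 were measured, all but Lif. Stat3 alone was past the rule, in the higher direction, where 1.84% of 13280 measured genes were, and 0 members were past it in the lower direction, where 0.648% of the measured genes were. Osmr had a log2 ratio of 0.84 and Socs3 of 0.81, the members just short of the rule. With a threshold of 1.5-fold instead, Stat3, Osmr and Socs3 were past it and higher, as were 4.29% of measured genes, and 0 members were lower, as were 3.04% of measured genes. The median log2 ratio of the 9 measured members was 0.33, and the quartiles of all measured genes were -0.16 and 0.15.

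**Figure D1:**
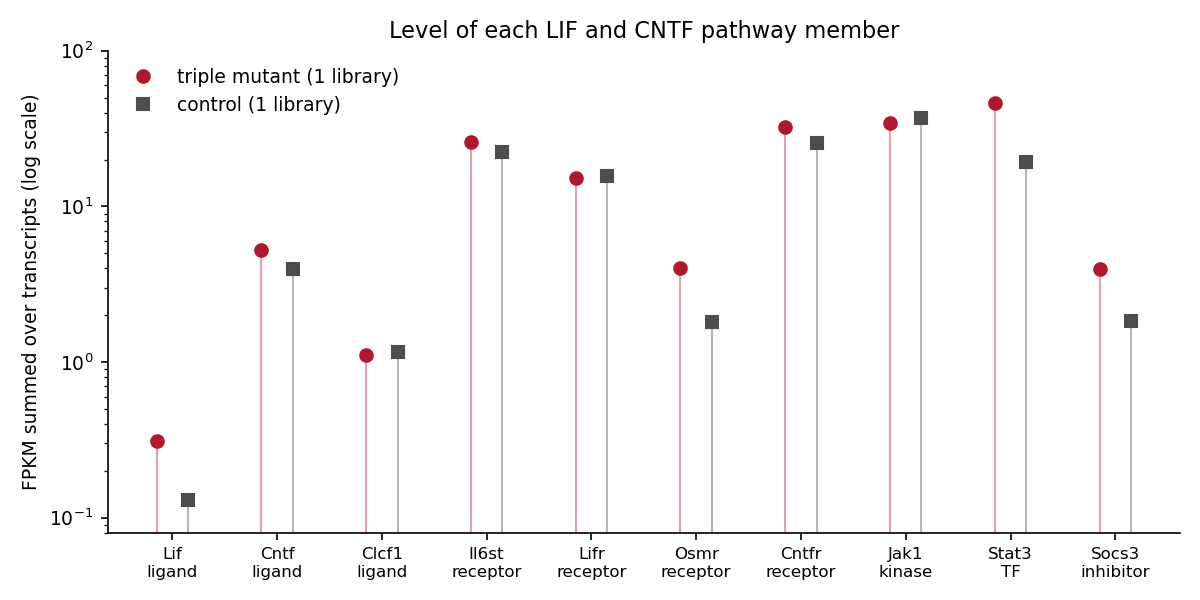
FPKM of each of the 10 genes, summed over transcripts, on a log scale, with the triple mutant library (red circles) left of the control library (grey squares). Stat3 stood at 46.5 FPKM in the triple mutant and 19.3 in the control, while Jak1, Lifr and Clcf1 were nearly level in both.

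Lif and Clcf1 were the lowest of the 10 genes in both libraries, and Cntf lay in the middle of the order. Lif (chromosome 11, 4257557 to 4272514, plus strand, GRCm38) had 0.310 FPKM in the triple mutant library and 0.130 in the control. These values rested on about 63 fragments in the triple mutant and 23 in the control, a 2.38-fold higher level with a counting interval of 1.46 to 4.01. Nearly all of the signal was assigned to NM_001039537, and NM_008501, which is listed within the same locus, had 1.4e-05 FPKM in the triple mutant and 4.6e-06 in the control. The matched GENCODE transcripts encode 158 residues for NM_001039537 and 203 residues for NM_008501. NM_008501 carries no tested status, and dividing so few fragments between transcripts of the same locus is an estimate. The 203-residue form is therefore not shown to be absent.

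Cntf had 5.24 FPKM in the triple mutant and 3.97 in the control, 1.32-fold higher (1.09 to 1.60), and was the most abundant of the 3 ligand genes in both libraries. Its value is uncertain, because exons of its neighbour Zfp91 overlap it on the same strand and both share a deposited locus. Zfp91, which encodes a zinc finger protein, had 40.8 FPKM in the triple mutant and 40.4 in the control. The Cntf level therefore rests on how the authors' program divided fragments between the neighbours. Clcf1, which encodes a cytokine that also binds the CNTF receptor, had 1.11 FPKM in the triple mutant and 1.16 in the control, and its fold of 0.955 had an interval from 0.717 to 1.27 that included 1.

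Receptor genes were abundant apart from Osmr, and Osmr was the receptor gene that differed most. Osmr lies on the minus strand of chromosome 15, from 6813577 to 6874969, and encodes the chain that pairs with gp130 to bind oncostatin M. It had 4.03 FPKM in the triple mutant library and 1.82 in the control, 2.22-fold higher (1.99 to 2.47). About 1207 fragments in the triple mutant and 473 in the control stood behind these values. Its log2 ratio with 1 FPKM added was above that of 97.6% of measured genes. Il6st, the gp130 gene, had 25.9 FPKM in the triple mutant and 22.4 in the control, 1.16-fold higher (1.13 to 1.19). Cntfr, the ligand-binding CNTF receptor gene, had 32.6 and 25.5 FPKM in the same order, 1.28-fold higher (1.21 to 1.35). Counting intervals of both excluded 1, and the log2 ratio of Il6st was above that of 81.7% of measured genes and the log2 ratio of Cntfr above that of 90.8%.

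Lifr, which encodes the signalling chain for LIF, CNTF and the Clcf1 product, was level between the libraries, at 15.2 FPKM in the triple mutant and 15.7 in the control (0.967-fold, 0.914 to 1.02). The mouse makes a membrane receptor and a shorter soluble form from this gene. NM_013584, matched to a GENCODE transcript of 1092 residues, had 12.5 FPKM in the triple mutant and 12.7 in the control. NM_001113386, matched to a transcript of 719 residues, had 2.63 FPKM in the triple mutant and 2.97 in the control. The shorter product thus took 17.3% of the Lifr level in the triple mutant and 19.0% in the control.

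**Figure D2:**
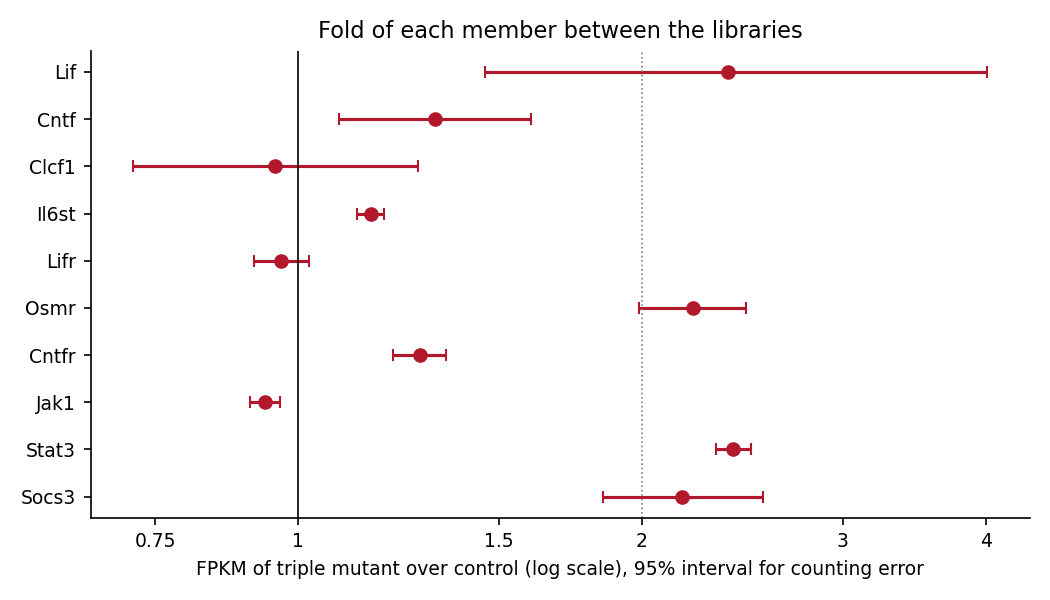
FPKM of the triple mutant library over the control library for each of the 10 genes, on a log scale, with 95% intervals for counting error only. The solid line marks no difference and the dotted line 2-fold. Lif, Osmr, Stat3 and Socs3 lie right of the dotted line, with Osmr's interval starting at 1.99 and Socs3's at 1.85, and the intervals of Clcf1 and Lifr include 1.

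Downstream of the receptors the transcription factor was higher in the triple mutant library, while the kinase was nearly level. Jak1, a kinase that binds gp130, had 34.4 FPKM in the triple mutant and 36.7 in the control (0.936-fold, 0.909 to 0.964). Stat3, on the minus strand of chromosome 11 from 100885098 to 100939540, had 46.5 FPKM in the triple mutant and 19.3 in the control, 2.41-fold higher (2.32 to 2.49). Its log2 ratio of 1.22 was above that of 98.7% of measured genes. Stat3 was the most abundant of the 10 genes in the triple mutant, ahead of Jak1, Cntfr and Il6st, and the fourth in the control, behind the same 3. Socs3, the inhibitor that STAT3 induces, lies on the same strand of chromosome 11 from 117966079 to 117970047 and had 3.96 FPKM in the triple mutant and 1.83 in the control, 2.17-fold higher (1.85 to 2.56). About 533 fragments in the triple mutant and 213 in the control stood behind it. Osmr and Socs3 lay close together in level, at 4.03 and 3.96 FPKM in the triple mutant and 1.82 and 1.83 in the control.

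All 3 Stat3 transcripts were higher in the triple mutant library, and their shares differed little. NM_213659, matched to the GENCODE transcript of 770 residues known as the alpha form, had 37.1 FPKM in the triple mutant and 15.3 in the control. NM_213660, matched to a product of 769 residues, had 5.30 FPKM in the triple mutant and 2.104 in the control. NM_011486, matched to the product of 722 residues known as the beta form, which lacks the end of the transactivation domain, had 4.09 and 1.96 FPKM in the same order. The beta form took 8.81% of the Stat3 level in the triple mutant and 10.1% in the control, and the alpha form 79.8% and 79.0%. Splitting fragments between overlapping transcripts is an estimate, and its error is not in the counting interval. Exons of Stat5a overlap Stat3 on the opposite strand, and Jak1 overlaps Raver2 likewise. Stat5a had 2.07 FPKM in the triple mutant and 1.98 in the control, and Raver2 had 9.52 and 11.0. No source names the strand setting of the counting, so fragments of such pairs may have been mixed.

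**Figure D3:**
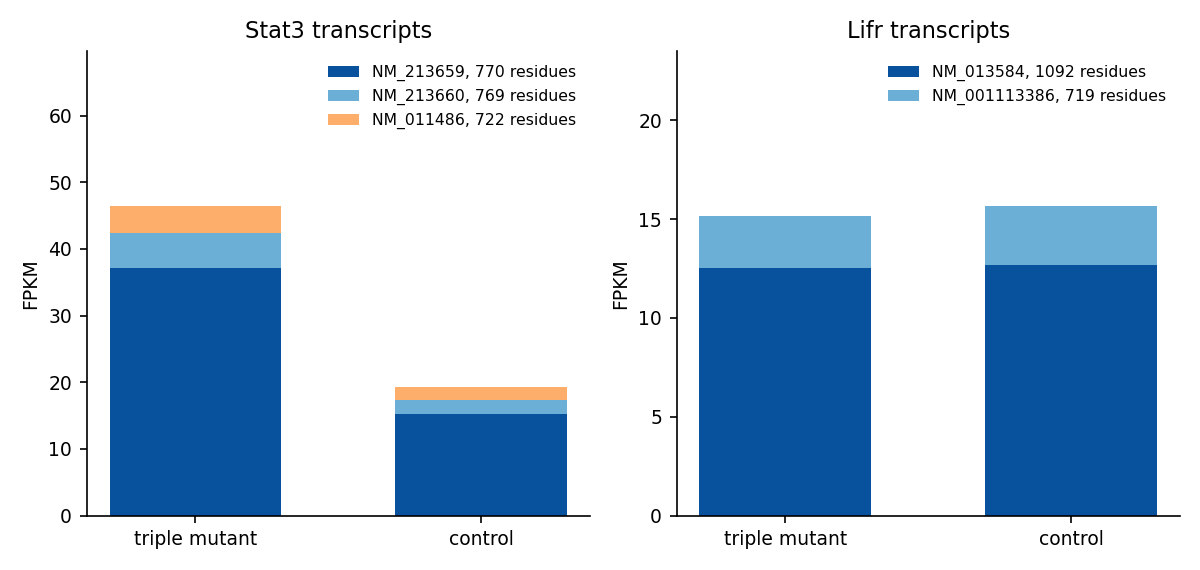
FPKM of the transcripts of Stat3 (left panel) and Lifr (right panel), stacked, with the triple mutant library left of the control library and each transcript named with the residues of its matched GENCODE product. The Stat3 stack reaches 46.5 FPKM in the triple mutant and 19.3 in the control with similar shares, and the Lifr stacks are nearly level at 15.2 and 15.7.

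The authors' deposited table with gene symbols holds their own comparison of the 2 libraries per transcript, without replicates, and calls 0 of the 16 member transcripts significant, where it calls 69 of all 30608 (0.225%). The lowest member q-value in the authors' deposited table was 0.0529, for NM_213659 of Stat3, with a log2 fold change of 1.28. In the authors' deposited table of a second run, without symbols, the same transcript had a q-value of 0.033 and a log2 fold change of 1.34 and was called significant. That table calls 69 of 33362 transcripts (0.207%) and no other member transcript, and Osmr came next with a q-value of 0.956 in that authors' deposited table.

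**Figure D4:**
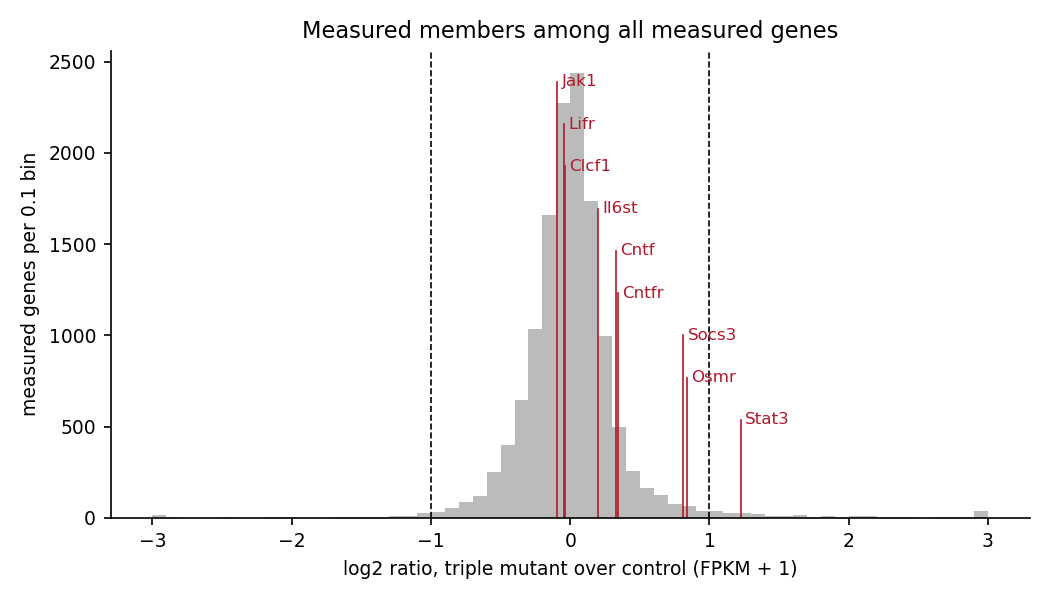
Number of measured genes per bin of 0.1 in the log2 ratio of triple mutant over control FPKM after adding 1, with ratios beyond 3 gathered in the end bins and dashed lines at the size rule. Red lines mark the 9 measured members at heights chosen for legibility: 6 lie between -0.09 and 0.34 and Socs3, Osmr and Stat3 at 0.81, 0.84 and 1.22.

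Sequence before the start sites is shown for Lif, Stat3 and Socs3, which were at least 2-fold higher, and for Il6st as the shared receptor chain that was not. The windows come from RefSeq (GRCm38.p6), run up to 250 bases before the RefSeq start and leave out bases that GENCODE M21 annotates as exon. The Socs3 start used, 117969366, lies inside the gene as GENCODE gives it, so its window does not precede the GENCODE start. Of the 10 genes 9 had windows, and all of the Osmr window is annotated as exon. Capitals mark CpG dinucleotides, the sites at which DNA methyltransferases act. The windows are chr11:4257318-4257556 on the plus strand for Lif, chr11:100939541-100939790 on the minus strand for Stat3, chr11:117969452-117969616 on the minus strand for Socs3 and chr13:112463820-112464069 on the plus strand for Il6st.
Lif: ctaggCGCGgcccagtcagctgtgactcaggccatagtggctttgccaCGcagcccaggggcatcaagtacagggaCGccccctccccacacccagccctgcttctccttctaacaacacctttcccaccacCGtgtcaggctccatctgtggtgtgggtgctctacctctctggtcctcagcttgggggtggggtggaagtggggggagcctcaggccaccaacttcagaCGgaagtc
Stat3: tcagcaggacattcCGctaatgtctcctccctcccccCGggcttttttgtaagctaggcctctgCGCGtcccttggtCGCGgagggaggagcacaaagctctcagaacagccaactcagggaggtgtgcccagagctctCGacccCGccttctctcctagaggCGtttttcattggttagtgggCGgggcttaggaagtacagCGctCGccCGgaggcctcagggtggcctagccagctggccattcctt
Socs3: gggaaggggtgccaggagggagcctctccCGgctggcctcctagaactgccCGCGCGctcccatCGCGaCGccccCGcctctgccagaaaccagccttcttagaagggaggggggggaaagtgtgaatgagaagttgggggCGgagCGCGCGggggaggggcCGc
Il6st: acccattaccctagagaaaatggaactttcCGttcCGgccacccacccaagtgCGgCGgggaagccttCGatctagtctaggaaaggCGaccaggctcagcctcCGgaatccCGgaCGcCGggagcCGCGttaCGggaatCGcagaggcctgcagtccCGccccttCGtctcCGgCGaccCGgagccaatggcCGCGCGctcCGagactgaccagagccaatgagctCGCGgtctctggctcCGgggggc

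CpG counts of the 4 genes that were at least 2-fold higher ran from 6 to 26. Those of the other genes ran from 1 to 43, a range too wide to set the 4 apart. A link between CpG count and level was not tested. In the full 250 bases before the start, Lif had 6 CpGs, Stat3 13, Osmr 18 and Socs3 26, while among the other genes Il6st had 26, Jak1 19 and Cntf 1. Lifr had 43 CpGs before the start at 7129572 and 3 before the start at 7140542, and the 6 Cntfr windows had 3 to 37. The median over 32851 windows was 6, with quartiles of 2 and 16. DNA methylation was not measured in the files used here. The general STAT motif TTCNNNGAA, which reads the same on both strands, was searched over 250 bases before to 50 after each start. It was found in 8.3% of all windows and in 1 of the 15 windows of these genes, that of Socs3. There it reads TTCTTAGAA and begins 154 bases before the RefSeq start at 117969366, within the printed Socs3 run. GENCODE begins Socs3 further upstream, at 117970047 on the minus strand, and sequence before that start was not searched. The stricter motif TTCCNGGAA, in 1.15% of windows and contained in the general one, was in 0 of the 15.

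Relatives of the member ligands and receptors were low or level. Of 9 other ligand genes of the family 2 were measured and 0 were past the size rule. With 1.84% of all measured genes past it in the higher direction and 0.648% in the lower, 0 of 2 says little. Ctf1, which encodes cardiotrophin, had 1.33 FPKM in the triple mutant and 1.48 in the control. Ebi3, a subunit of interleukin-27, had 1.26 FPKM in the triple mutant and 1.10 in the control. Il6 and Il31 were listed at 0 in both libraries. Osm, which encodes the ligand for the Osmr chain, had 0.0505 FPKM in the triple mutant and 0.0236 in the control and carries no tested status. Of 4 other receptor genes only Il11ra1, the binding chain for interleukin-11, was measured, at 11.6 FPKM in the triple mutant and 10.2 in the control.

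Among 9 other Janus kinase and STAT genes, 8 were measured, 2 were past the size rule in the higher direction and 0 in the lower. The shares over all measured genes were 1.84% and 0.648% in the same order. This list was also chosen with earlier results of these data known, so its counts are no test. Stat2, a mediator of interferon signalling, had 24.1 FPKM in the triple mutant and 11.3 in the control, 2.12-fold higher (2.02 to 2.23). Jak2 had 11.5 FPKM in the triple mutant and 11.3 in the control, Tyk2 had 5.98 and 5.03, and Stat5b had 18.1 and 20.6. The median log2 ratio of these 8 genes was 0.13.

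Most other negative regulators differed little between the libraries, and Ptpn6, a phosphatase gene of blood cells, had the largest fold at 1.90 FPKM in the triple mutant and 0.667 in the control. All 15 listed genes were measured, 0 were past the size rule in either direction, and their median log2 ratio was 0.03. The shares over all measured genes, 1.84% higher and 0.648% lower, are so small that 0 of 15 does not set the list apart. Pias3, which encodes an inhibitor that binds STAT3, had 75.3 FPKM in the triple mutant and 72.8 in the control. Ptpn11, a phosphatase recruited to gp130, had 42.0 FPKM in the triple mutant and 45.6 in the control, and Socs7 had 45.0 and 47.6. Socs1, the relative that restrains interferon signalling, had 2.24 FPKM in the triple mutant and 1.47 in the control, 1.53-fold higher (1.27 to 1.84).

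Genes known as STAT3 targets in various tissues were mostly higher in the triple mutant library, by differences of widely varying size. Of 21 listed, 18 were measured, 4 were past the size rule in the higher direction and 0 in the lower, with a median log2 ratio of 0.42. Among all measured genes 1.84% were past it in the higher direction and 0.648% in the lower. Of the 18 measured targets 15 were above the control and 3 below. At the 1.5-fold threshold 7 were higher and 0 lower, against 4.29% and 3.04% of all measured genes. The list was chosen with earlier results of these data known, so these counts are no test of STAT3 activity. Cebpd, which encodes a stress-induced transcription factor, had 34.1 FPKM in the triple mutant and 4.14 in the control, 8.23-fold higher (7.63 to 8.90). Bcl3, a modulator of NF-kappaB, had 4.23 FPKM in the triple mutant and 0.283 in the control, 14.9-fold higher (9.85 to 23.7). Gfap, the intermediate filament gene of astrocytes and reactive Mueller glia, had 25.6 FPKM in the triple mutant and 7.72 in the control. Ccnd1, a cyclin gene, had 26.0 FPKM in the triple mutant and 12.2 in the control. The most abundant targets differed less: Vim had 154 FPKM in the triple mutant and 124 in the control, Mcl1 had 42.2 and 38.0, and Bcl2l1 had 41.6 and 40.2. Serpina3n, an acute phase gene of reactive glia, was lower, with 6.47 FPKM in the triple mutant and 7.86 in the control. Fos, with 15.6 and 20.5 FPKM in the same order, and Pim1, with 2.82 and 3.08, were the other measured targets below the control.

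Of 6 genes of the retinal stress response known to depend on LIF, 5 were past the size rule in the higher direction and 0 in the lower. They were Edn2, Fgf2 and Ednrb with Cebpd and Gfap, which are also on the target list, as is Serpina3n, the sixth. Among all measured genes 1.84% were past the rule in the higher direction and 0.648% in the lower. This list was chosen with earlier results of these data known, so its count is no test of LIF signalling. Edn2, the endothelin gene induced in stressed photoreceptors, had 48.9 FPKM in the triple mutant and 0.114 in the control. Ednrb, an endothelin receptor gene of Mueller glia, had 6.48 FPKM in the triple mutant and 2.07 in the control, 3.13-fold higher (2.79 to 3.51). Fgf2 had 58.4 FPKM in the triple mutant and 2.12 in the control, and fragments of its antisense neighbour cannot be told apart from its own without strand.

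The other outputs of gp130, through the MAP kinase and PI3 kinase routes, had 0 of 14 genes past the size rule in either direction. Their median log2 ratio was 0.02. Since only 1.84% of all measured genes were past the rule in the higher direction and 0.648% in the lower, 0 of 14 does not set them apart. The kinase gene Mapk3 had 57.5 FPKM in the triple mutant and 54.0 in the control. Spry2, a feedback inhibitor of receptor tyrosine kinases, had 52.6 FPKM in the triple mutant and 58.0 in the control.

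**Figure D5:**
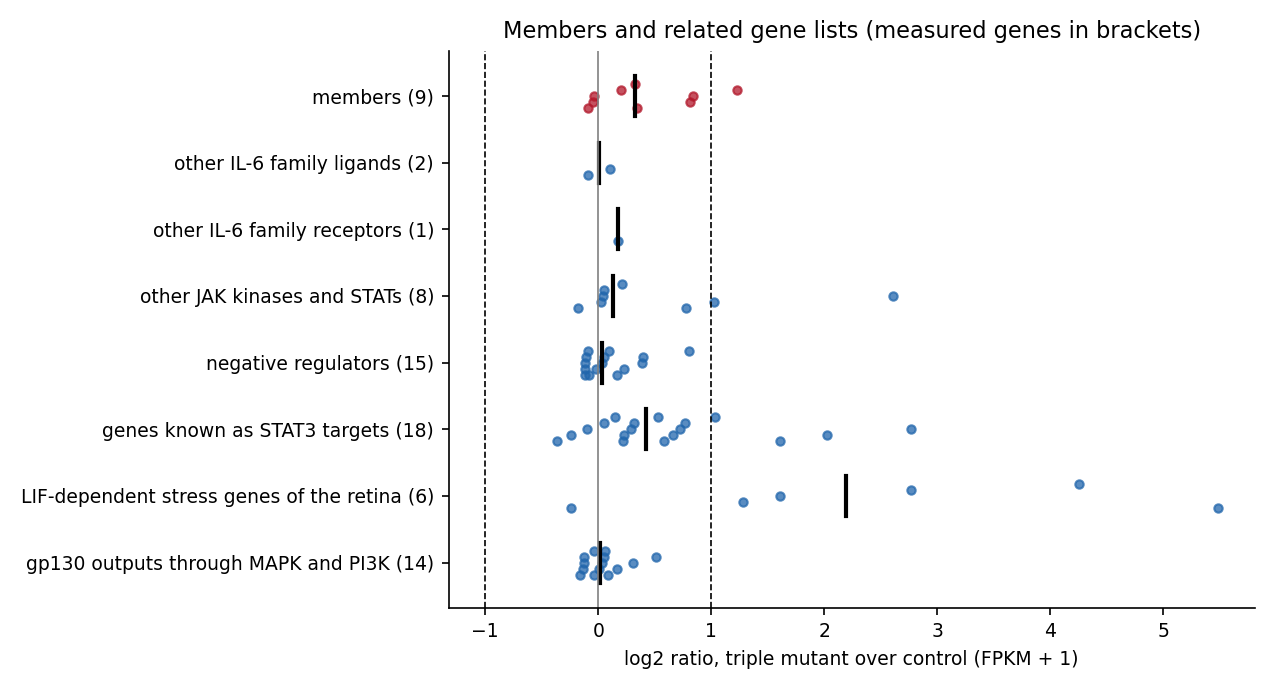
Log2 ratio of triple mutant over control FPKM after adding 1, for each measured gene of the 10 members and of 7 related lists, with black bars at medians and dashed lines at the size rule. Points are spread vertically only for legibility. The members and lists were chosen with earlier results of these data known. The list of LIF-dependent stress genes has a median of 2.19 and the STAT3 targets one of 0.42, while negative regulators and MAP kinase and PI3 kinase outputs lie around 0.

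Cell type markers were compared because a whole retina mixes cells, and more cells of a type cannot be told apart from more RNA per cell. Over all measured genes 1.84% were past the size rule in the higher direction and 0.648% in the lower. Markers of microglia and macrophages, of astrocytes and of Mueller glia were mostly above the control, the direction of Osmr, Stat3 and Socs3. Of 12 microglia and macrophage markers 11 were measured, 7 were past the size rule in the higher direction and 0 in the lower. These markers summed to 123 FPKM in the triple mutant and 30.5 in the control, with none at 0. Of 12 Mueller glia markers 0 were past the size rule in either direction and 10 were above the control, with sums of 2955 FPKM in the triple mutant and 2781 in the control and none at 0. These sums rest largely on a few genes that differed in opposite directions, such as Glul with 561 FPKM in the triple mutant and 952 in the control, and Apoe with 988 and 655. Astrocyte markers had 2 of 3 measured genes past the size rule in the higher direction, and summed to 46.8 FPKM in the triple mutant and 20.1 in the control, Gfap included. Schwann cells are a known source of CNTF, and markers of Schwann cells and oligodendrocytes together summed to 10.3 FPKM in the triple mutant and 11.2 in the control. Blood vessel markers summed to 148 and 164 FPKM in the same order, with 0 of 8 past the rule. Cone markers had all 6 below the control and 4 past the size rule in the lower direction, and summed to 355 FPKM in the triple mutant and 810 in the control. Ganglion cell markers summed to 504 and 765 in the same order, with 0 of 7 past the rule. All 7 were nevertheless below the control, 5 of them past the 1.5-fold threshold, with a median log2 ratio of -0.60. The part of any of these cell types in the levels of the 10 genes was not tested.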

How the data were processed

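Total RNA of 1 triple mutant and 1 control retina library was made into libraries by a commercial provider, per the labels' protocols. The submitters' processing notes name TopHat2 2.0.8, Cuffdiff 2.1.1 and the mm10 build. Layout, strand setting, gene models and any pooling are not given there. Levels were deposited as FPKM for each RefSeq transcript, which the authors estimated, per the file headers. The 2 deposited tables also hold the authors' log2 fold change, test statistic (a score that is not used here), p-value and q-value for each transcript, per the file headers.

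FPKM was summed over all rows of a gene where symbols are given. A gene needed at least 1 row with status OK and none marked as failed or as holding excessive data, which left 15318 of 23356 symbols, 13280 of them measured. Depth came from low values of genes with 1 transcript and a length of 3000 bases or more: 70.7% of 191 values in the triple mutant and 75.3% of 194 in the control were whole multiples of a step within 10% of it, shares that the choice of step and of a 150-base fragment length maximises. Fragments of a gene used the lengths of matched GENCODE M21 transcripts and are approximate. Fold intervals are exact conditional binomial intervals (SciPy 1.17.1) and were tested on simulated data. The members and lists were chosen with earlier results of these data known. Named genes were the members and, of each list, genes past the size rule and up to 3 more with the highest FPKM. Il6, Il31, Osm, Socs1, Stat5a, Raver2, Zfp91, Jak3, Ptpn6, Il6ra, Timp1, Tnfrsf12a, Il4ra, Glul and Apoe were chosen after their values were seen. Some genes that this rule names are not reported here. Serpina3n is named as the remaining gene of its list, and Fos and Pim1 as the other measured targets below the control. Coordinates are those of GENCODE on GRCm38, the assembly that mm10 denotes. With 2 libraries no likeness of pattern between genes was measured.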

Additional observations from a re-analysis of the deposited data

How the results depend on the processing

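No paired analysis was possible because each genotype had 1 library, and for the same reason no library could be left out. The count of members past the size rule, 1 at the main settings, was 3 with a pseudocount of 0.1 and 3 with the 1.5-fold rule (Osmr, Socs3 and Stat3 both times), and 4 with no pseudocount and no filter, an alternative chosen after seeing the data that added Lif. The STAT3 targets past it, 4 at the main settings, numbered 2 with a pseudocount of 5 and 7 with the 1.5-fold rule. Negative regulators past it numbered 1 with a pseudocount of 0.1, with the 1.5-fold rule and with no pseudocount and no filter, in each case Ptpn6. Other receptors numbered 1 with no pseudocount and no filter (Il6ra), and other Janus kinases and STATs numbered 1 with a pseudocount of 5. The other 150 of 160 alternative counts stayed within 1.5 times the main count, and the 10 others, given above, came with another pseudocount, filter or threshold. Only 44 of the 160 were above 0, and all 10 that moved were among these 44. The rest were 0 as at the main settings, so the 150 say little about stability. The log2 ratio ran from 1.08 to 1.28 for Stat3, from 0.41 to 1.11 for Osmr and from 0.39 to 1.08 for Socs3 over the alternatives with a pseudocount, lowest in each with a pseudocount of 5. Lifr had 0.01 in the second table and -0.05 in the main one, past no rule in either. Jak1 had -0.03 in the second table and -0.09 in the main one, and Il6st had 0.26 and 0.20 in the same order. All 24 transcript shares compared with the second table moved by under 1 percentage point. The second table raised the median log2 ratio of all measured genes by 0.06. Depth limits Lif most, which rested on 63 fragments in the triple mutant and 23 in the control.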

Other observations

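Some genes of the related lists that are best known from blood cells and immune cells were at least 2-fold higher in deposited FPKM but below the size rule. They were picked after their values were seen. A 2-fold higher FPKM was found in 18.6% of genes averaging 0.1 to 1 FPKM, the band of Il6ra. It was found in 5.75% of those averaging 1 to 5 FPKM, the band of Jak3 and Ptpn6. Of the STAT3 targets, Timp1 (2.33-fold) and Tnfrsf12a (2.01-fold) were also at least 2-fold higher and below the size rule. The interleukin receptor gene Il4ra was 1.23-fold higher. Jak3, the kinase of the common gamma chain receptors, had 2.28 FPKM in the triple mutant and 0.913 in the control, 2.49-fold higher (2.09 to 2.98). Ptpn6, a phosphatase gene of blood cells, had 1.90 FPKM in the triple mutant and 0.667 in the control, 2.86-fold higher (2.16 to 3.81). Il6ra, the binding chain for interleukin-6, had 0.465 FPKM in the triple mutant and 0.162 in the control, 2.87-fold higher (1.82 to 4.68). Beside them the microglia and macrophage markers summed to 123 FPKM in the triple mutant and 30.5 in the control, and their part in these 3 values was not tested.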
